A study of Mus musculus with 15 samples.

Results

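The genes described here are those of calmodulin, the calcium sensor, and of the calcium/calmodulin-dependent protein kinases (CaM kinases): Calm2, Calm3, Camk4, Camk1d, Camk2a, Camk2b, Camk2d, Camk2g and Camkk2. They were chosen by name and are 9 of 35142 genes. The choice used no measured value, but earlier results of these data were known when it was made. All 9 passed the filter on low counts, which left 15360 genes to test. RNA was sequenced from 15 cultures of dissociated cerebellar cells of wild-type C57BL/6 mouse pups (postnatal day 0-4), labelled as neurons, at day 14 in vitro. Each group had 5 cultures. The first was unstimulated, and the other two were given recombinant murine IL-12p70 at 30 or 100 ng/ml for 18 h. The comparisons address whether IL-12, a cytokine that drives type 1 immunity, alters gene expression in cultured neuronal cells. Nothing in the labels says whether replicates came from separate pups or litters, so the p-values measure the spread between these cultures, which may be technical.

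When calcium rises in a cell, calmodulin binds it and then binds and activates many other proteins. CaMKII is assembled from subunits of the alpha, beta, delta and gamma genes (Camk2a, Camk2b, Camk2d, Camk2g), phosphorylates itself and is best known for its part in synaptic plasticity. CaMKK2 lies upstream: it phosphorylates CaMKI (here Camk1d) and CaMKIV (Camk4), the latter a nuclear kinase known from cerebellar granule cells, and it also phosphorylates AMPK.

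Calm2 and Calm3 encode the same protein from separate chromosomes, so within the reading frame their RNAs differ only in bases that leave the protein unchanged. The first 150 coding bases of both are shown for that reason. Calm2 lies at chr17:87740829-87754363 (minus strand, GRCm39) and Calm3 at chr7:16649290-16658156 (minus strand). Capitals mark the 23 positions in this stretch at which the genes differ.
Calm2: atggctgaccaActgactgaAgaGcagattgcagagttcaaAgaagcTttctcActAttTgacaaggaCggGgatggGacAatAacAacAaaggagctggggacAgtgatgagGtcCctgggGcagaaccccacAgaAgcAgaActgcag
Calm3: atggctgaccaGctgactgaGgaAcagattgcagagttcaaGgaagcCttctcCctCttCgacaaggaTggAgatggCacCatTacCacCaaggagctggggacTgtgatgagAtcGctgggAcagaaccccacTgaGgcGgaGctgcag
Over the whole reading frame of 447 bases before the stop codon, Calm2 and Calm3 were identical at 369 bases (82.6%). Of the 78 differences, 74 fell on the last base of a codon. The longest run that the reading frames shared was 17 bases, and the annotated transcripts of Calm2 and Calm3 shared 0 stretches of 31 bases.

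The CaMKII genes differ from each other, and from transcript to transcript, in a variable linker between the kinase domain and the part that assembles the holoenzyme. Its short coding exons are shown because the estimates below split each gene's RNA by them. A 33-base exon occurs in matching form in Camk2d (chr3:126596586-126596618, plus strand, GRCm39) and Camk2g (chr14:20797887-20797919, minus strand). In Camk2d this exon is known to add a nuclear localisation signal. Capitals mark the 7 bases that differ between the genes (78.8% identity).
Camk2d, 33 bases: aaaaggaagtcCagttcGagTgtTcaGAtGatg
Camk2g, 33 bases: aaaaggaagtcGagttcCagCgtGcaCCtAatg
The most used variable exon was one of 42 bases in Camk2d (chr3:126601857-126601898, plus strand) and one of 69 bases in Camk2g (chr14:20795860-20795928, minus strand), printed in lower case throughout.
Camk2d, 42 bases: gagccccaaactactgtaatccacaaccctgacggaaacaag
Camk2g, 69 bases: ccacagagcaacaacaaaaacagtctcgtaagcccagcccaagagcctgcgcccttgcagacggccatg
Between the CaMKII genes, Camk2a and Camk2b shared 6 stretches of 31 bases over all annotated transcripts, Camk2a and Camk2d shared 2, and the other 4 pairs shared 0.

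Each culture held between 25746096 and 38435850 estimated counts. Of the lists of cell type markers, those of glia stood above those of neurons in the unstimulated cultures. The median level per marker, in TPM (transcript abundance corrected for transcript length and library), was 384.9 for 14 microglia genes, 254.4 for 12 oligodendrocyte-lineage genes, 216.2 for 12 astrocyte genes, 21.25 for 12 pan-neuronal genes and 3.81 for 12 granule cell genes. None of the 12 pan-neuronal genes was at 0, but the labelled cell type made up only part of what the RNA shows. In RNA from mixed cells, fewer cells of a type and less RNA per cell cannot be told apart. Of the cultures, 100 ng/ml replicate 2 stood apart: without it, the number of genes that differed between 100 ng/ml and unstimulated cultures went from 1500 to 2932.

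The calmodulin genes were the most abundant of the 9, CaMKII delta and gamma came next, and CaMKII alpha and Camk4 were near the lower end of what was tested. Mean levels over the 15 cultures ran from 706.2 TPM for Calm3, above 98.8% of the genes tested, and 488.2 TPM for Calm2 to 57.7 TPM for Camk2d and 54.9 TPM for Camk2g. Camkk2 followed at 21.7 TPM, Camk1d at 14.7, Camk2b at 11.5, Camk2a at 2.56 and Camk4 at 2.52. The median gene tested was at 16.8 TPM. Some neighbours in this order were not separated: Camk2d was above Camk2g in 10 of 15 cultures, Camk1d above Camk2b in 14 of 15, and Camk2a above Camk4 in 11 of 15, and the ranges of each of these pairs overlapped. Every other neighbouring pair kept its order in all 15 cultures.

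**Figure D1:**
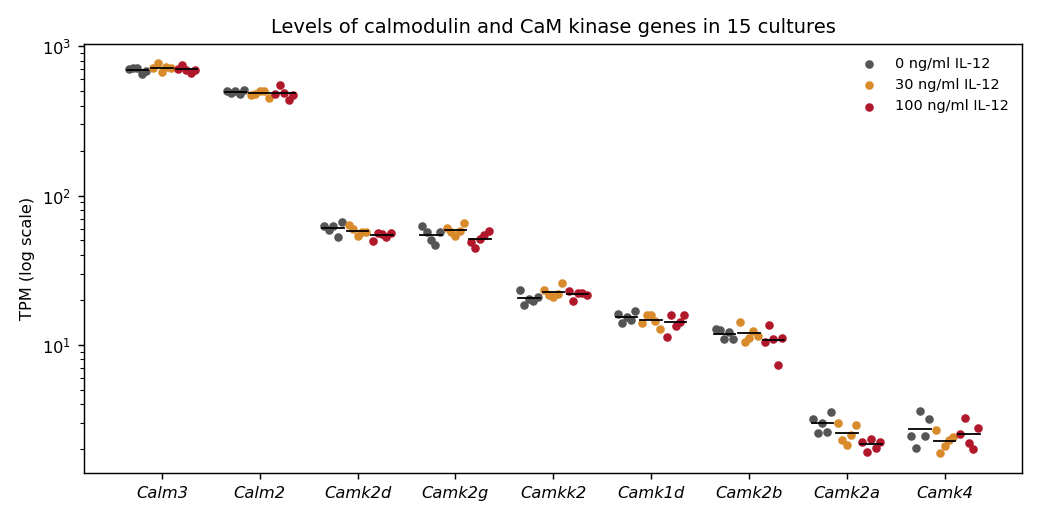
Level of each gene in TPM (log axis) in every culture; points are cultures, colours the IL-12 concentration, black bars the mean of 5 cultures. Calm3 and Calm2 lie near 706.2 and 488.2 TPM, Camk2a and Camk4 near 2.56 and 2.52 TPM, and the 3 groups overlap for most genes.

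Neither calmodulin gene differed with IL-12 beyond the threshold, and their intervals were narrow. Calm2 was at 496.1 ± 13.1 TPM without stimulation (SD, n = 5), 483.5 ± 22.7 with 30 ng/ml and 485.0 ± 42.2 with 100 ng/ml. Calm3 was at 698.2 ± 26.4, 719.0 ± 33.7 and 701.3 ± 30.7 TPM in the same order. The groups overlapped for both genes. For differences between groups, CPM (counts scaled by library and not by transcript length) were compared in edgeR, and differences are given on the log2 scale with their standard error (SE) and false discovery rate (FDR). At 100 ng/ml, Calm2 differed from unstimulated cultures by -0.02 (SE 0.05, 95% interval -0.14 to 0.09, FDR 0.828) and Calm3 by 0.03 (SE 0.04, interval -0.06 to 0.12, FDR 0.748). With 30 ng/ml the differences were -0.08 (interval -0.20 to 0.03, FDR 0.382) and 0.04 (interval -0.05 to 0.13, FDR 0.598).

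CaMKII was the one place among the 9 genes where a difference passed the test, and the genes were Camk2a and Camk2d at 100 ng/ml. They were 2 of 9 genes lower and 0 of 9 higher. Over all 15360 genes, 9.77% passed at this concentration, 3.93% lower and 5.83% higher. With 30 ng/ml 0 of 9 passed (1 at an unadjusted p under 0.05, and 0 by DESeq2) beside 7.87% of all genes, 3.71% lower and 4.16% higher. Between 100 and 30 ng/ml 0 of 9 passed (1 at an unadjusted p under 0.05, and 0 by DESeq2) beside 0.579%, 0.0781% lower and 0.501% higher. The median log2 difference over the 9 genes was -0.07 at either concentration, and over all genes -0.004 at 100 ng/ml and 0.000 at 30 ng/ml.

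Camk2a encodes the alpha subunit, the chief form in forebrain excitatory neurons. It was at 6.61, 7.82, 7.49, 7.64 and 6.15 CPM in the 5 unstimulated cultures, 6.14, 5.87, 6.18, 6.84 and 6.90 CPM with 30 ng/ml, and 6.58, 4.93, 5.83, 4.74 and 5.77 CPM with 100 ng/ml. Of the cultures at 100 ng/ml, 4 lay below every unstimulated one, while replicate 1 lay within the unstimulated range. Camk2a fell by 0.35 on the log2 scale (SE 0.10, interval -0.56 to -0.15, FDR 0.0294), and in percent it dropped by 21.7%. The difference at 30 ng/ml was -0.16 (SE 0.10, FDR 0.350), and between 100 and 30 ng/ml it was -0.19 (SE 0.10, FDR 0.425). In TPM, looked at after its values were seen, the unstimulated cultures (2.58 to 3.53) and those at 100 ng/ml (1.91 to 2.35) did not overlap, and 5.88% of all genes were separated in that way. Camk2a was counted from 126 to 253 reads a culture. Its FDR was 0.0639, 0.0614 and 0.0598 without unstimulated replicates 2, 3 and 4, 0.0716 without 100 ng/ml replicate 4, and 0.0657 with the 30 ng/ml cultures left out of the fit. With replicate number added to the fit it was 0.0625. Without 100 ng/ml replicate 2 it was 0.0369.

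Camk2d encodes the delta subunit, found in many tissues. It was at 94.0, 97.4, 96.7, 90.1 and 97.9 CPM in the 5 unstimulated cultures, 93.3, 92.5, 90.2, 88.2 and 90.0 CPM with 30 ng/ml, and 81.8, 91.1, 85.4, 86.8 and 90.9 CPM with 100 ng/ml. Replicate 4 of the unstimulated cultures lay below the highest of those at 100 ng/ml, so the groups met at one end. Camk2d fell by 0.13 on the log2 scale (SE 0.04, interval -0.21 to -0.05, FDR 0.0475), and in percent it dropped by 8.45%. This call was close to the threshold. The FDR was 0.170 with no filter on low counts, 0.120 with the 30 ng/ml cultures left out of the fit, 0.0664 with library size alone and 0.0531 with at least 10 counts required in every culture. With replicate number added to the fit it was 0.0637. The call held in 3 of 15 fits that left out 1 culture, those without unstimulated replicate 4 or without 100 ng/ml replicate 2 (FDR 0.0163) or replicate 5. The FDR was 0.0777, 0.0853, 0.0925 and 0.110 without unstimulated replicates 1, 2, 3 and 5, 0.0602, 0.0642, 0.0603, 0.0628 and 0.0627 without 30 ng/ml replicates 1 to 5, and 0.112, 0.112 and 0.0862 without 100 ng/ml replicates 1, 3 and 4. Camk2d at 30 ng/ml differed by -0.07 (SE 0.04, FDR 0.322).

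Markers of other cells differed in the same comparison. Of the 12 oligodendrocyte-lineage genes, 3 were lower at 100 ng/ml (among them Mbp and Mag, which encode myelin proteins) and 0 higher, and their summed level was 6947 to 10280 TPM unstimulated, 6974 to 8544 with 30 ng/ml and 6220 to 7537 with 100 ng/ml. Of the 12 pan-neuronal genes, 1 was higher (Tubb3, a tubulin, 0.43, FDR 0.00273) and 0 lower, with a median of -0.12 and sums of 259.3 to 344.8, 317.3 to 367.8 and 300.9 to 330.6 TPM. Map2 (84.7 TPM), Gap43 (67.5 TPM) and Tubb3 (67.3 TPM) made up much of those sums, and members without a call lay on the other side of 0, such as Syt1 at -0.47 (FDR 0.0729), Snap25 at -0.43 (FDR 0.235) and Rbfox3 at -0.42 (FDR 0.264). Of 8 tested Purkinje cell and interneuron genes, 1 was lower (Calb1, a calcium-binding protein of Purkinje cells, -0.56, FDR 0.00346) and 0 higher. That list had a median of -0.29 and sums of 68.3 to 84.0, 66.8 to 78.3 and 59.2 to 79.4 TPM. Without a call, mean CPM went up from unstimulated to 100 ng/ml for Car8 (2.61 to 3.12), Itpr1 (46.3 to 51.2) and Pvalb (15.7 to 16.5). It went down for Gad1 (16.4 to 12.4), Gad2 (6.5 to 5.0), Slc32a1 (6.5 to 5.3) and Slc6a5 (2.8 to 2.3). Pcp2, a Purkinje cell marker at 0.031 TPM, was not tested. Of 8 fibroblast and meningeal genes, 2 were higher (Col1a1, 0.36, FDR 0.0282, and Pdgfrb, 0.31, FDR 0.00650) and 0 lower. Their median was 0.06 and their sums were 555.2 to 719.2, 565.3 to 667.8 and 649.2 to 819.3 TPM. Of the rest, mean CPM was higher at 100 ng/ml than unstimulated for Col1a2 (378.4 against 314.5), Col3a1 (336.7 against 321.5) and Lum (20.7 against 20.0). It was lower for Dcn (41.1 against 46.1), Igf2 (130.8 against 134.6) and Vtn (67.3 against 70.8). Of the 12 astrocyte genes, 2 were higher and 1 lower, with sums of 4089 to 4549, 4793 to 5580 and 4520 to 4988 TPM. No gene of these lists was at 0 in every culture. The part of these shifts in the levels of Camk2a and Camk2d was not tested.

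The other CaMKII genes gave no call. Camk2g, the gamma subunit, was at 79.2 ± 1.52 CPM unstimulated, 81.7 ± 3.82 at 30 ng/ml and 75.6 ± 4.94 at 100 ng/ml, with the groups overlapping. Its difference was -0.07 at 100 ng/ml (SE 0.05, interval -0.16 to 0.03, FDR 0.389), 0.05 at 30 ng/ml (FDR 0.620) and -0.11 between 100 and 30 ng/ml (interval -0.21 to -0.01, FDR 0.318). Camk2b, the beta subunit, which binds actin, varied most among replicates, from 11.8 CPM in 100 ng/ml replicate 4 to 25.3 CPM in 30 ng/ml replicate 1. Its interval at 100 ng/ml was correspondingly wide, -0.48 to 0.14 around -0.17 (FDR 0.494). Camk2b overlaps Ykt6 on the opposite strand. Of the called genes, Camk2d overlaps annotated genes on both strands, such as Gm17225 on the opposite and Gm43011 on the same strand. Camk2a overlaps Mir7220 and Mir6982 on the same strand.

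Most of the CaMKII RNA was delta and gamma in every group. In unstimulated cultures Camk2d gave 46.6 ± 2.2% of the summed CaMKII TPM, Camk2g 42.0 ± 2.0%, Camk2b 9.18 ± 1.0% and Camk2a 2.28 ± 0.21%. In the same order the shares were 44.3 ± 1.8%, 44.7 ± 2.0%, 9.04 ± 0.87% and 1.94 ± 0.18% with 30 ng/ml, where Camk2g was level with Camk2d. At 100 ng/ml the shares were 45.8 ± 1.6%, 43.4 ± 3.2%, 9.04 ± 1.9% and 1.82 ± 0.15%. The sum of the 4 genes was 130.1 ± 10.5 TPM unstimulated, 131.6 ± 7.73 at 30 ng/ml and 118.3 ± 5.81 at 100 ng/ml, and the ranges overlapped. These sums and shares are descriptions and were not tested.

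**Figure D2:**
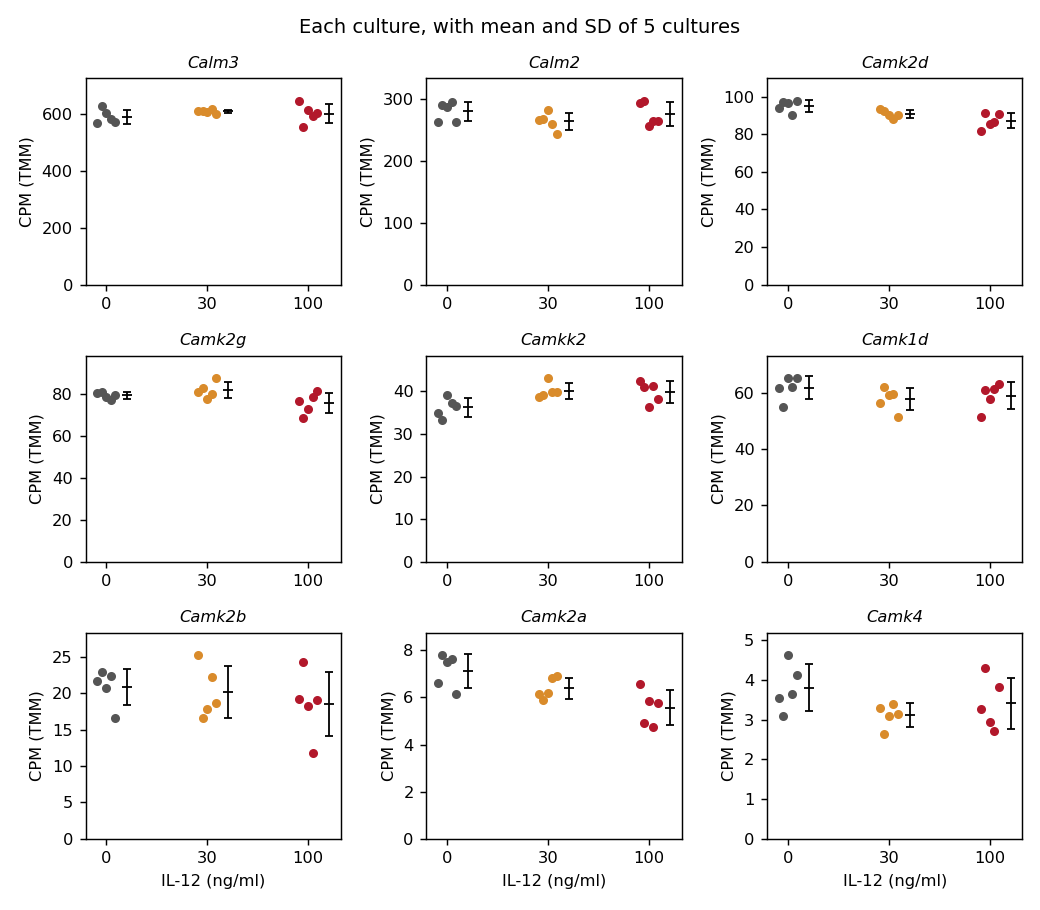
CPM of each gene in every culture by IL-12 concentration (0, 30 and 100 ng/ml); bars beside the points are the mean and SD of 5 cultures, and each axis starts at 0. Of the 100 ng/ml cultures, 4 lie below all unstimulated cultures for Camk2a, while the groups overlap for every gene.

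Camkk2, the upstream kinase, lay higher in stimulated cultures without passing the test. It was at 34.9, 33.3, 39.2, 37.2 and 36.7 CPM unstimulated, 38.6, 39.1, 43.2, 39.8 and 40.0 CPM with 30 ng/ml, and 42.5, 41.0, 36.2, 41.2 and 38.3 CPM with 100 ng/ml. The groups overlapped. Unstimulated replicate 3 lay above the lowest 30 ng/ml culture, and unstimulated replicates 3, 4 and 5 lay above the lowest 100 ng/ml culture. The difference was 0.15 at 30 ng/ml (SE 0.05, interval 0.03 to 0.26, FDR 0.101) and 0.14 for 100 ng/ml (SE 0.05, interval 0.02 to 0.25, FDR 0.112). With the mean of both concentrations set against unstimulated cultures, Camkk2 differed by 0.14 (SE 0.05, FDR 0.0548), Camk2a by -0.26 (SE 0.08, FDR 0.0525) and Camk2d by -0.10 (SE 0.03, FDR 0.0667). In that comparison 0 of 9 genes passed (3 at an unadjusted p under 0.05, and 3 by DESeq2, at FDR 0.0382, 0.0296 and 0.0245) beside 11.9% of all genes, 5.21% lower and 6.68% higher. Leaving out a culture brought each of these under 0.05 in 2 of 15 fits. Over the 15 fits the FDR reached 0.137 for Camkk2, 0.1235 for Camk2a and 0.163 for Camk2d. For Camkk2 the FDR was 0.0401 without unstimulated replicate 3 and 0.0312 without 100 ng/ml replicate 3, for Camk2a 0.0401 without unstimulated replicate 5 and 0.0265 without 100 ng/ml replicate 1, and for Camk2d 0.0484 without unstimulated replicate 4 and 0.0285 without 100 ng/ml replicate 2.

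The kinases that CaMKK2 phosphorylates gave no call. Camk1d, a form of CaMKI, was at 61.8 ± 4.21, 57.7 ± 4.04 and 58.9 ± 4.73 CPM in unstimulated, 30 and 100 ng/ml cultures, a difference of -0.10 (interval -0.23 to 0.04, FDR 0.386) and -0.07 (interval -0.20 to 0.06, FDR 0.528). Camk4 was at 3.81 ± 0.593, 3.12 ± 0.292 and 3.41 ± 0.646 CPM, a difference of -0.29 (interval -0.57 to 0.00, FDR 0.221) and -0.16 (interval -0.44 to 0.12, FDR 0.487). Camk4 rested on 76 to 136 counts a culture, and its intervals were wide enough to hold a change of the size seen for Camk2d. It overlaps 2310026I22Rik on the opposite strand. The granule cell markers, the cells in which Camk4 is best known, summed to 154.0 to 177.9, 169.9 to 200.5 and 165.0 to 182.8 TPM in the 3 groups, and Zic1 (76.2 TPM) and Pax6 (38.0 TPM) made up much of that sum. Of the 12 genes, 1 was higher with 30 ng/ml (Pax6, 0.22, FDR 0.0365) and 0 lower, while the list's median log2 difference was -0.34. Among the members without a call were Grin2c at -0.84 (FDR 0.0563), Neurod1 at -0.54 (FDR 0.212) and Cbln1 at -0.49 (FDR 0.121). With 100 ng/ml 0 of the 12 passed and the median was -0.12. The part of these shifts in the level of Camk4 was not tested.

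**Figure D3:**
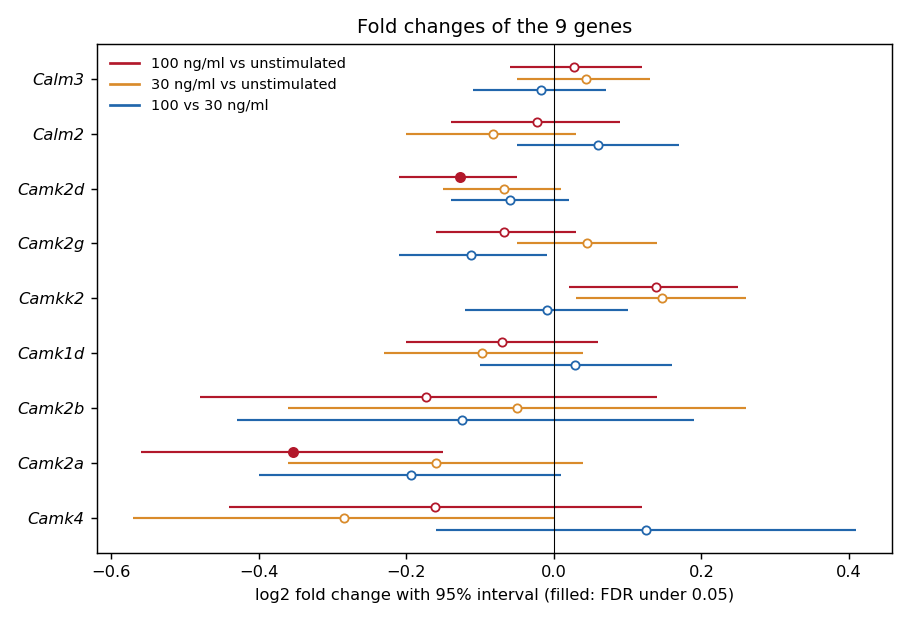
Log2 fold change in CPM of each gene with its 95% interval for either concentration against unstimulated cultures and for 100 against 30 ng/ml; filled points have an FDR under 0.05. The filled points are Camk2a at -0.35 and Camk2d at -0.13, both at 100 ng/ml.

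The share of a gene's RNA held by each transcript gave no call. Of the 21 transcripts tested, from 8 of the genes, 0 were called in any comparison by edgeR's test of transcript usage. Of all 26348 transcripts, 0.0038% were called at 100 ng/ml, 0.019% at 30 ng/ml and 0.0417% between concentrations. With so few calls over all transcripts, 0 calls among the 21 does not show that their shares were unchanged. At an unadjusted p under 0.05 there was 1 of the 21, Camk2g-203 at 30 ng/ml (p 0.0158 by that edgeR test). A single transcript carried most of the estimated counts of Camk1d (Camk1d-201, 98.1%), Calm3 (Calm3-201, 89.5%), Camk2a (Camk2a-203, 84.0%) and Calm2 (Calm2-201, 83.3%). Camk4-201 held 71.1% and Camkk2-201 held 71.0%. The CaMKII genes beta, delta and gamma were divided: Camk2b-204 held 40.5% and Camk2b-209 30.1%, Camk2d-202 held 44.2% and Camk2d-226 14.8%, and Camk2g-202 held 61.6% and Camk2g-203 24.1%. The share of Camk2b-209 ran from 10.3% to 53.4% between cultures.

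The exons printed above were used unequally. As a share of the TPM of transcripts that span the site, the 69-base exon of Camk2g was in 62.9% over the 15 cultures (56.3% to 72.1%) and the 42-base exon of Camk2d in 65.9% (55.7% to 77.9%). The 33-base exon was in 9.62% of Camk2d (0% to 17.6%) and 6.15% of Camk2g (2.20% to 13.9%), so the form with the added nuclear signal was by this estimate a minority of delta RNA. A 60-base exon of Camk2d was in 11.8 ± 4.2% of unstimulated, 17.8 ± 3.0% of 30 ng/ml and 20.3 ± 7.2% of 100 ng/ml cultures, and a 33-base exon of Camk2a in 22.0 ± 8.8%, 21.1 ± 7.0% and 33.4 ± 10%. The groups overlapped for both of these exons, and these shares, which rest on how reads were divided among annotated transcripts, were not tested.

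**Figure D4:**
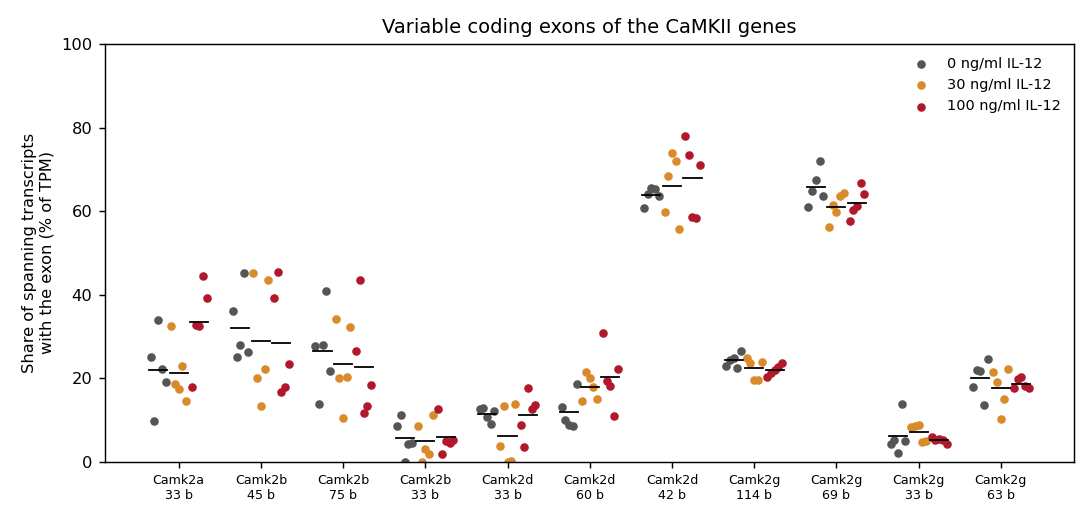
Share of the TPM of spanning transcripts that holds variable coding exons (b, bases), by culture and IL-12 concentration; black bars are means of 5 cultures. The 42-base exon of Camk2d (65.9%) and the 69-base exon of Camk2g (62.9%) stand above the others, and the groups overlap.

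Among genes that work with these kinases, Mef2c and Mef2d, which encode MEF2 transcription factors, were lower, and Mylk and Adcy8 were higher. The lists of related genes were set by role, and each is given with its counts. For the mean of the concentrations, the counts stand beside 6.68% of all genes higher and 5.21% lower, for 100 ng/ml beside 5.83% and 3.93%, and for 30 ng/ml beside 4.16% and 3.71%. At those shares a list of 8 to 16 tested genes would hold about 1 or 2 calls in the mean. The lists were chosen with earlier results of these data known, and genes of a list can move together. Nothing particular to a list is therefore read from its count, also where there are more calls. Among 16 transcription factors and cofactors downstream of CaM kinases, 0 were higher and 3 lower with 100 ng/ml, 0 higher and 2 lower with 30 ng/ml, and 0 higher and 4 lower for the mean of the concentrations (median log2 difference -0.09, over all genes -0.002). The 4 were Mef2c, Mef2d, Mef2a and Hdac9, the last a histone deacetylase that binds and represses MEF2. Mef2c was at 41.1 ± 7.73 TPM unstimulated, 31.3 ± 2.93 at 30 ng/ml and 32.2 ± 5.96 at 100 ng/ml. In that mean, Mef2c fell by 0.43 on the log2 scale (SE 0.08, FDR 0.00299), Mef2d by 0.20 (SE 0.04, FDR 0.00493), Mef2a by 0.22 (SE 0.07, FDR 0.0371) and Hdac9 by 0.26 (SE 0.07, FDR 0.0190). Mef2c and Mef2d passed in all 22 alternatives tried for this comparison, Hdac9 in 20 and Mef2a in 13. Mef2a passed at neither concentration alone (FDR 0.0870 at 100 and 0.0785 at 30 ng/ml). In the fits without 1 culture, the FDR of Mef2a reached 0.0980 and that of Hdac9 reached 0.0610. The call of Mef2d at 30 ng/ml held in 5 of 15 such fits and that of Hdac9 at 100 ng/ml in 10 of 15. Hdac5, at 68.7 TPM, and Atf1, at 43.2 TPM, were the most abundant of the list.

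Microglia also express Mef2c and Mef2a, and microglia markers moved beside them. Of 14 tested microglia genes, 9 were lower and 0 higher at 30 ng/ml, 0 passed at 100 ng/ml in either direction, and 6 were lower in the mean. Their summed level was 8985 to 12650 TPM unstimulated, 7171 to 8968 at 30 ng/ml and 8579 to 11260 at 100 ng/ml, and none was at 0 throughout. Their part in the levels of the MEF2 genes was not tested.

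Mylk, the calmodulin-dependent kinase of myosin light chain, was at 2.13 to 3.23 TPM unstimulated, 3.05 to 4.33 with 30 ng/ml and 4.08 to 4.58 with 100 ng/ml. It rose by 0.52 at 30 ng/ml (SE 0.09, FDR 0.00160) and 0.51 at 100 ng/ml (SE 0.09, FDR 0.00122) on the log2 scale of CPM, in which the unstimulated and stimulated cultures did not overlap (8.89% of all genes at 30 and 7.17% at 100 ng/ml), and it passed under every alternative. It was the 1 call among 14 tested CaM kinases, inhibitors and phosphatases outside the 9 genes, with a median of 0.04 for 100 ng/ml and of 0.03 for 30 ng/ml. Camk1 (184.3 TPM) and Itpkb (96.1 TPM), which makes inositol tetrakisphosphate, were the most abundant. Among 9 tested genes of the list of calmodulin and its binding proteins, 1 was higher in the mean, Gap43, a growth cone protein that binds calmodulin (0.17, SE 0.05, FDR 0.0486), and 0 lower. Gap43 was called at 30 ng/ml (0.25, FDR 0.0156) and not at 100 ng/ml (0.08, FDR 0.454). In the mean its call held in 10 of 22 alternatives, with an FDR of up to 0.140 when a culture was left out. Marcks, which encodes a binding protein, was at 156.5 TPM. Camta2, named after its value was seen, was the list's 1 call at 100 ng/ml (0.16, FDR 0.0398), where the groups overlapped. It did not pass at 30 ng/ml (0.06, FDR 0.515) or in the mean (0.11, FDR 0.0921). The alternatives are not given for Camta2.

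In the CaMKK2 branch to AMPK, 0 of 9 genes of LKB1, its partners and AMPK passed in any comparison, with a median of -0.04 at 100 ng/ml and 0.02 at 30 ng/ml. Stk11, which encodes LKB1, was at 94.6 TPM and Cab39 at 77.0 TPM. Among 13 genes of calcineurin, the calmodulin-dependent phosphatase, and its regulators, 1 was higher and 1 lower in the mean: Cabin1, a calcineurin inhibitor (0.17, SE 0.04, FDR 0.0143), and Nfatc2, a transcription factor that calcineurin activates (-0.23, SE 0.07, FDR 0.0441). Cabin1 passed in 21 of 22 alternatives (FDR 0.0510 without unstimulated replicate 3) and Nfatc2 in 11, with an FDR of up to 0.133 when a culture was left out. By concentration, Cabin1 passed at 100 ng/ml (FDR 0.0210) and not at 30 ng/ml (FDR 0.0631). Nfatc2 passed at neither (FDR 0.173 at 100 and 0.0501 at 30 ng/ml). The calcineurin subunits Ppp3r1 (65.9 TPM) and Ppp3ca (64.8 TPM) were the most abundant, and the list had a median of -0.11 for 100 ng/ml and of -0.05 for 30 ng/ml.

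Of 8 tested cyclases, phosphodiesterases and nitric oxide synthases that calmodulin regulates, 1 was higher at each concentration and 0 lower. It was Adcy8, a calcium-stimulated adenylyl cyclase, at 0.26 in the mean (SE 0.05, FDR 0.00400), which passed in all 22 alternatives, while its call at 100 ng/ml held in 10 of 15 fits without 1 culture. Pde1b (25.1 TPM) and Adcy3 (19.9 TPM) led the list. Of 14 tested synaptic partners and substrates of CaMKII, 2 were higher in the mean and 0 lower, the scaffold genes Shank3 (0.17, SE 0.04, FDR 0.0140) and Dlg4 (0.12, SE 0.04, FDR 0.0465). In that mean, Shank3 passed in all 22 alternatives and Dlg4 in 6, the latter with an FDR of up to 0.117 when a culture was left out. By concentration, the call of Shank3 at 100 ng/ml (FDR 0.0279) held in 9 of 15 fits without 1 culture. At 30 ng/ml (FDR 0.0473) it held in 4 of 15, with an FDR of up to 0.120. Dlg4 passed at neither concentration alone (FDR 0.122 at 100 and 0.072 at 30 ng/ml). Gria1, an AMPA receptor subunit that CaMKII phosphorylates, was the most abundant at 129.2 TPM, followed by Dlg4 at 39.1 TPM.

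**Figure D5:**
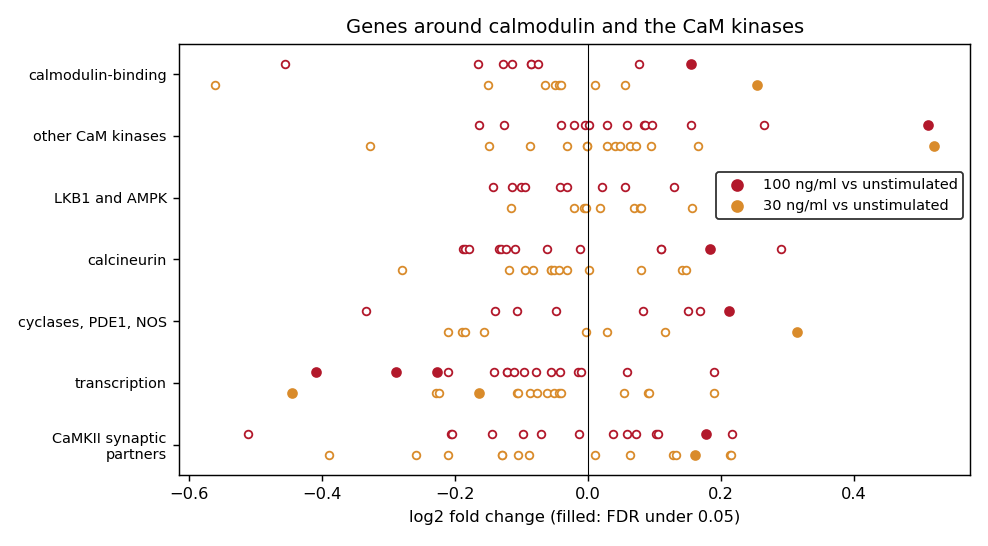
Log2 fold change in CPM of each tested gene of the 7 lists of related genes, at 100 and 30 ng/ml against unstimulated cultures; filled points have an FDR under 0.05. Mylk stands apart on the right at 0.51 and 0.52, and the filled points on the left are Mef2c, Mef2d and Hdac9 among the transcription factors.

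Across the 15 cultures, the 9 genes had different companions among 14182 protein-coding genes compared by Pearson's r of log2 CPM. The most like Camk2d was Lratd2 (r 0.94), followed by Slc24a2 (0.91) and Scamp1 (0.91). For Camk2a they were Kazald1 (0.86), Macrod1 (0.85) and Crabp1 (0.84), for Camk2b Slc39a12 (0.91), 2610008E11Rik (0.84) and Gm35315 (0.84), and for Camk2g Pitpnm3, Tyro3 and Nek11 (each 0.86). The most like Calm3 were Mdk (0.91), Pmm1 (0.90) and Coq8b (0.89), and the most like Calm2 were Mtx2 (0.88) and Snrpb2 (0.87). Camk1d was closest to Ago1 (0.93), Slc29a3 (0.91) and Mtus1 (0.89), Camk4 to Zscan29 (0.86), Hecw1 (0.82) and Fgf9 (0.81), and Camkk2 to Il18 (0.84), Ube2l6 (0.82) and Hmgcll1 (0.82). Among the 9 genes themselves the highest r was 0.49, between Camk2a and Camk2b, and the lowest was -0.59, between Calm3 and Camk1d. With group means removed, other pairs stood at the ends: Calm3 and Camk2a at 0.75 (0.36 before) and Camk1d and Camk2a at -0.63 (-0.21 before), while Camk2a and Camk2d went from 0.31 to -0.53. These are descriptions over cultures that share libraries, normalization and groups, picked as the highest of many.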

How the data were processed

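RNA of 15 cultures was sequenced from stranded mRNA libraries. The deposited files give estimated counts and TPM for 121798 transcripts of each culture. The program behind these estimates is not given in the sources used here. The submitters' processing notes name STAR 2.7.8a, featureCounts and GRCm39. Estimated counts and TPM were summed to 35142 genes with the GENCODE M39 annotation (99.0% of transcripts matched), and 0.677% to 0.712% of counts were left out as unmatched. Estimated counts were rounded to whole numbers for the tests. The 15360 genes that reached 1 CPM in 2 or more cultures were scaled by TMM and tested by edgeR 4.0.16 (R 4.3.3) with its quasi-likelihood test in 1 fit of the 3 groups, with Benjamini-Hochberg adjustment and an FDR threshold of 0.05. Transcript usage was tested by diffSpliceDGE. Scripts were tested on simulated data. DESeq2 1.42.0, other scalings, filters and tests, a replicate block and fits without each culture were the alternatives. No pair of replicates agreed within sampling noise. The genes and lists were chosen with earlier results of these data known. Named genes were all 9 genes, the 2 most abundant of each list, up to 4 called genes of each list in the mean of both concentrations with the largest difference, the 3 most similar genes by r, and the 2 main transcripts of each gene. A few genes and exons that fall under these rules are not reported here. Sequences and coordinates are GRCm39, with exons from GENCODE M39.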

Additional observations from a re-analysis of the deposited data

How the results depend on the processing

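For the comparison of 100 ng/ml with unstimulated cultures, 2 of the 9 genes passed, and between 0 and 2 did over the fits without 1 culture. With library size alone, with no filter on low counts, or with at least 10 counts required in every culture, 1 passed. With the cultures of the other group kept out of the fit, or at an FDR under 0.01, 0 passed. At 30 ng/ml 1 gene (Camkk2, FDR 0.0481) passed with library size alone, against 0. For the mean of both concentrations, where 0 passed, 3 did with DESeq2, 1 with RLE size factors, 1 with library size alone and 2 with the likelihood-ratio test, and 0 to 1 when a culture was left out. Fits that left cultures out had fewer of them, and the cause of these changes was not tested.

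Over all genes, 1500 were called at 100 ng/ml, 946 with only the groups compared, 527 at an FDR under 0.01 and 938 to 2932 with a culture left out. At 30 ng/ml 1209 were called, 404 at an FDR under 0.01 and 673 to 1668 with a culture left out. Between concentrations 89 were called, 241 with DESeq2, 253 with the likelihood-ratio test, 35 at an FDR under 0.01 and 38 to 147 with a culture left out. In the mean 1827 were called, 704 at an FDR under 0.01 and 1204 to 2837 with a culture left out.

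The labels do not say whether replicate numbers pair the cultures. Deviations of same-numbered cultures correlated at -0.18 to 0.26, with 4 of 15 pairs over 0.1. Those of differently numbered cultures correlated at -0.24 to 0.31, with 10 of 60 pairs over 0.1. These values cannot show whether the cultures were paired. With a replicate block, 0 of the 9 genes passed at 100 ng/ml (Camk2a FDR 0.0625, Camk2d 0.0637), and the block changed no other call of the 9 genes.

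Differences near 0 changed sign. At 100 ng/ml Calm2 was at 0.004 without 100 ng/ml replicate 3 (-0.053 to 0.004 over fits without 1 culture) and Calm3 at -0.001 without replicate 1 (-0.001 to 0.056). At 30 ng/ml Camk2b was at 0.011 without 30 ng/ml replicate 2 (-0.145 to 0.011). Between concentrations Calm3 was at 0.012 without 100 ng/ml replicate 2 (-0.045 to 0.012), Camk1d at -0.008 without 30 ng/ml replicate 5 (-0.008 to 0.075), and Camkk2 at 0.018 without 30 ng/ml replicate 3 and at 0.025 and 0.004 without 100 ng/ml replicates 3 and 5 (-0.034 to 0.025). In the mean Camk2g was at 0.003 with library size alone and at 0.005 without 100 ng/ml replicate 2 (-0.024 to 0.005). Camk2a rested on 126 to 253 counts a culture and Camk4 on 76 to 136.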
